A study of Mus musculus with 6 samples.

Results

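The 29 genes described here encode the enzymes of cholesterol synthesis, the proteins that control that pathway, and proteins that carry, export or store sterols. They were taken by symbol from a fixed list, all 29 were found among the 24421 genes of the deposited count table, and all 29 passed the filter on low counts. They comprise 18 enzymes of the mevalonate and sterol steps, 5 genes of SREBP control (SREBPs are the sterol regulatory element binding proteins, encoded by Srebf1 and Srebf2), and 6 genes of transport and storage.

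The study profiled islets isolated from the pancreas of C57BL/6J mice by RNA sequencing, with 3 libraries from a β cell-specific Dhps knockout (genotype C57.DhpsloxP.MIP1-CreERT) and 3 libraries labelled control. Dhps encodes deoxyhypusine synthase, which modifies the translation factor eIF5A, and the series title links this modification to β cell proliferation. MIP1-CreERT is a tamoxifen-activated Cre recombinase under a mouse insulin promoter, so recombination is directed to β cells while a whole islet also holds other endocrine, vascular and immune cells. The labels give neither age nor the Cre status of the controls, do not spell out the prefix HF in every sample name, and do not say whether each replicate came from its own animal. The p-values therefore reflect the scatter of these 6 libraries, which may be technical.

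Cholesterol is made in the endoplasmic reticulum and cytosol from acetyl-CoA, through mevalonate, farnesyl diphosphate, squalene and lanosterol. When membrane sterol is low, the escort protein SCAP carries SREBPs to the Golgi, where they are cut and released to the nucleus, and SREBP2 then activates most of the synthesis genes. INSIG proteins hold SCAP back when sterol is plentiful, while the oxysterol-sensing LXR receptors activate the efflux pumps ABCA1 and ABCG1. In mouse β cells, loss of Abca1 raises islet cholesterol and impairs insulin secretion.

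SREBPs bind sterol regulatory elements, often beside sites for the factor NF-Y, so the promoters were searched for both. The windows run from 250 bases before to 50 bases after each gene start, from RefSeq on build GRCm38.p6, and 23 of the 29 genes had an entry. TCACNCCAC, a sterol regulatory element with a free base, and CCAAT, the NF-Y core, were searched on both strands. In these windows 0 matches of the sterol element overlapped a CCAAT match. The sterol element was found for 1 of the 23 genes, or 4.35%, against 1.44% of all 27018 genes with a window. CCAAT was found for 20 of the 23, or 87.0%, against 41.1% of all genes. A gene counted here if any of its windows held a match, and the 23 genes had 31 windows. By window, CCAAT was found in 21 of the 31, against 37.4% of all windows, and the sterol element in 1 of the 31, against 1.24%. A match describes letters and not binding, and a window without a match says nothing on whether the factor binds. Abcg1, Fdft1, Fdps, Npc1, Sqle and Stard4 had no entry.

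3 windows are shown because they belong to the enzyme with the lowest unadjusted p (Hmgcs1), the regulator with the lowest (Srebf2), and the gene with the highest level per length (Msmo1). Each reads 5′ to 3′ in the direction of its gene, with motif matches in capitals (TCACCCCAC for the sterol element, CCAAT or its reverse complement ATTGG for NF-Y).
Hmgcs1, chr13:119690101-119690400, plus strand: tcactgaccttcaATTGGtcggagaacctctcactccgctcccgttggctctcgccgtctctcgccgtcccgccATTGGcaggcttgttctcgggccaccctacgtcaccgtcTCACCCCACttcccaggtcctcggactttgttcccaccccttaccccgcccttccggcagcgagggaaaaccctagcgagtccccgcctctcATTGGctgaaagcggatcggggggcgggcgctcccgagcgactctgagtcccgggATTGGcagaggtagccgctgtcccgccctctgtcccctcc
Srebf2, chr15:82147019-82147318, plus strand: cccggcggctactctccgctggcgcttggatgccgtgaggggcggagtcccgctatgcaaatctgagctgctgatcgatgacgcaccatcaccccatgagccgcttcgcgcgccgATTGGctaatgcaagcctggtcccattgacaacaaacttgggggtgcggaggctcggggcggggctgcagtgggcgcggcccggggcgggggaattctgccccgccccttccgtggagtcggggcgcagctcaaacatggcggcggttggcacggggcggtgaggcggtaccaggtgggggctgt
Msmo1, chr8:64733529-64733828, minus strand: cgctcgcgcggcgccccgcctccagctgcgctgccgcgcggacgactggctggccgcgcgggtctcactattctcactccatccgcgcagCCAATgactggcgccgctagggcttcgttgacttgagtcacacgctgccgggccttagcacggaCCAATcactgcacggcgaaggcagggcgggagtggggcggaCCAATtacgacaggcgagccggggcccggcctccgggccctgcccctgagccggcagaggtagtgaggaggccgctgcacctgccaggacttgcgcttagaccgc
The Hmgcs1 window held the sterol element, starting 137 bases upstream of the gene start, and 4 CCAAT matches. The Srebf2 window held 1 CCAAT match and the Msmo1 window held 3.

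The libraries held 21027737 to 23249895 counts each, and the members averaged between 129 and 3927 counts over the 6 libraries. The 6 islet hormone genes took 46.3 to 48.2% of counts in knockout-labelled libraries and 44.9 to 51.9% in controls. Dhps, the targeted gene, had 11.7, 12.7 and 11.4 CPM (CPM are counts scaled to the size of the library) in knockout-labelled islets and 12.03, 13.4 and 12.3 CPM in control islets. These groups overlapped (log2 fold change −0.07 ± 0.12 SE, 95% interval −0.34 to 0.20, edgeR adjusted p = 0.742), and the exons of Dhps overlap those of Wdr83, so the libraries are called knockout-labelled throughout. Acinar marker genes of digestive enzyme cells took 3.51 to 3.89% of counts in knockout-labelled libraries and 0.144 to 1.37% in controls (exact permutation test, two-sided, p = 0.1, the lowest that 3 against 3 allows). Macrophage and myeloid markers took 0.0334 to 0.0483% in knockout-labelled libraries and 0.0209 to 0.0265% in controls (exact permutation p = 0.1). Of the 32 acinar markers 29 were tested, 2 rose and 0 fell in edgeR, and of the 17 myeloid markers 8 rose and 0 fell. Duct markers took 0.148 to 0.202% in knockout-labelled libraries and 0.118 to 0.132% in controls (exact permutation p = 0.1), and 2 of the 10 tested rose. Stellate and fibroblast markers took 0.0412 to 0.0566% in knockout-labelled libraries and 0.0120 to 0.0443% in controls (exact permutation p = 0.2), and 5 of 16 rose. Endothelial markers took 0.0536 to 0.0686% in knockout-labelled libraries and 0.0384 to 0.0568% in controls (exact permutation p = 0.3), and 5 of the 14 tested rose. Lymphocyte markers took 0.0015 to 0.0099% in knockout-labelled libraries and 0.0016 to 0.0023% in controls (exact permutation p = 0.5), and 1 of the 10 tested rose. None of the genes on these lists was at 0 in every library. The part of these cells in the values below was not tested, and in bulk islets fewer cells of a type and less RNA per cell cannot be told apart.

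Levels per length are given as RPKM, CPM per kilobase of exon. The most abundant members in both groups were Msmo1, a methyl sterol oxidase, and Sqle, the squalene epoxidase. Msmo1 averaged 71.9 ± 12.3 RPKM in knockout-labelled islets and 88.3 ± 9.21 RPKM in control islets (SD, n = 3 each). Sqle averaged 65.3 ± 2.68 RPKM in knockout-labelled islets and 62.3 ± 2.57 RPKM in control islets. Fdps (farnesyl diphosphate synthase), Npc2 (the soluble lysosomal cholesterol carrier) and Insig1 filled the next 3 places in both groups, in a different order. The lowest level was that of Npc1, the lysosomal membrane partner of NPC2, at 2.04 ± 0.147 RPKM in knockout-labelled islets and 1.62 ± 0.246 RPKM in control islets. Npc2 thus stood far above Npc1 per length, and the members spanned a wide range in both groups.

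**Figure D1:**
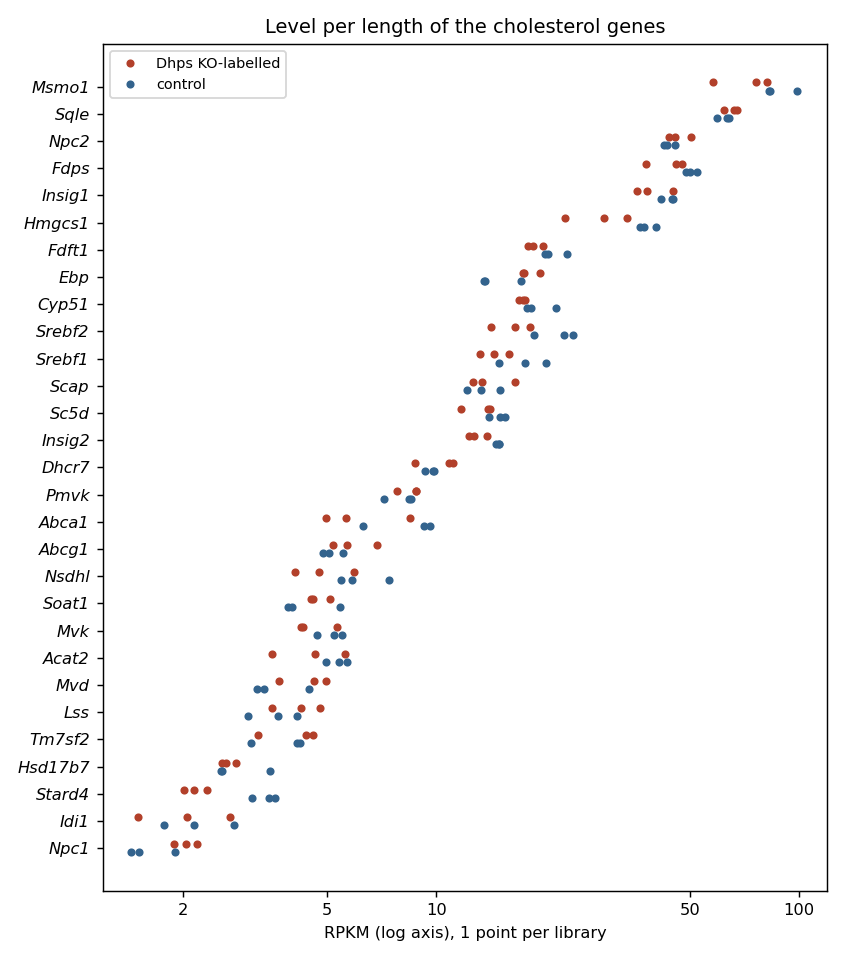
RPKM (log axis) of the 29 genes, 1 point per library, ordered by the mean of the 3 knockout-labelled libraries; knockout-labelled points lie above control points in each row. Msmo1 and Sqle are highest and Npc1 is lowest in both groups.

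Few genes passed the test between the groups, among the members as over all genes. Of the 29 members, 1 fell in knockout-labelled islets, 0 rose and 28 were not called (edgeR quasi-likelihood test, Benjamini-Hochberg adjusted over 13736 genes, threshold 0.05). Over all genes tested, 6.76% were called, 4.14% higher and 2.63% lower in knockout-labelled islets, against 3.45% of the members. At such shares a list of 29 can hold few calls or none. At an unadjusted p under 0.05, 1 member was higher and 3 were lower, or 4 of 29, against 14.9% higher, 11.6% lower and 26.5% in either direction over all genes. DESeq2 called 3 members lower and 0 higher, and it called 12.4% of all genes. Limma-voom called 1 member lower and 0 higher, and it called 6.49% of all genes. The member log2 fold changes had a median of −0.14 and ran from −0.65 to 0.34, while the median over all genes tested was 0.01. In the edgeR fit on group alone, the 95% interval of every one of the 29 lay within a 2-fold change either way, and for 19 it lay within 1.5-fold. The 2 groups were fully apart in 9 members (31.0%), against 32.1% of all genes tested. Of these, 1 was higher (16.9% of all genes) and 8 were lower (15.2% of all genes) in knockout-labelled islets. When the mean level of the myeloid markers was added as a covariate, the member median was 0.054 and 0 members were called by edgeR, with 4 at an unadjusted p under 0.05. That fit called 0.0291% of all genes, and 12.5% of all genes had an unadjusted p under 0.05. DESeq2 was not run with a covariate. The acinar and the myeloid marker shares were each fully apart between the groups. Fits with these covariates therefore separate group from marker level poorly, and their log2 fold changes, given without intervals, are not corrected effects. The acinar covariate moved the log2 fold change of 18 of the 29 members by over 1.5 times or changed its sign, and the myeloid covariate did so for 26. Such moves were not counted over all genes, so they are not shown to be particular to the members. A small log2 fold change passes this mark with a small shift, as Dhcr7 did from 0.09 to 0.01 with the acinar covariate.

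**Figure D2:**
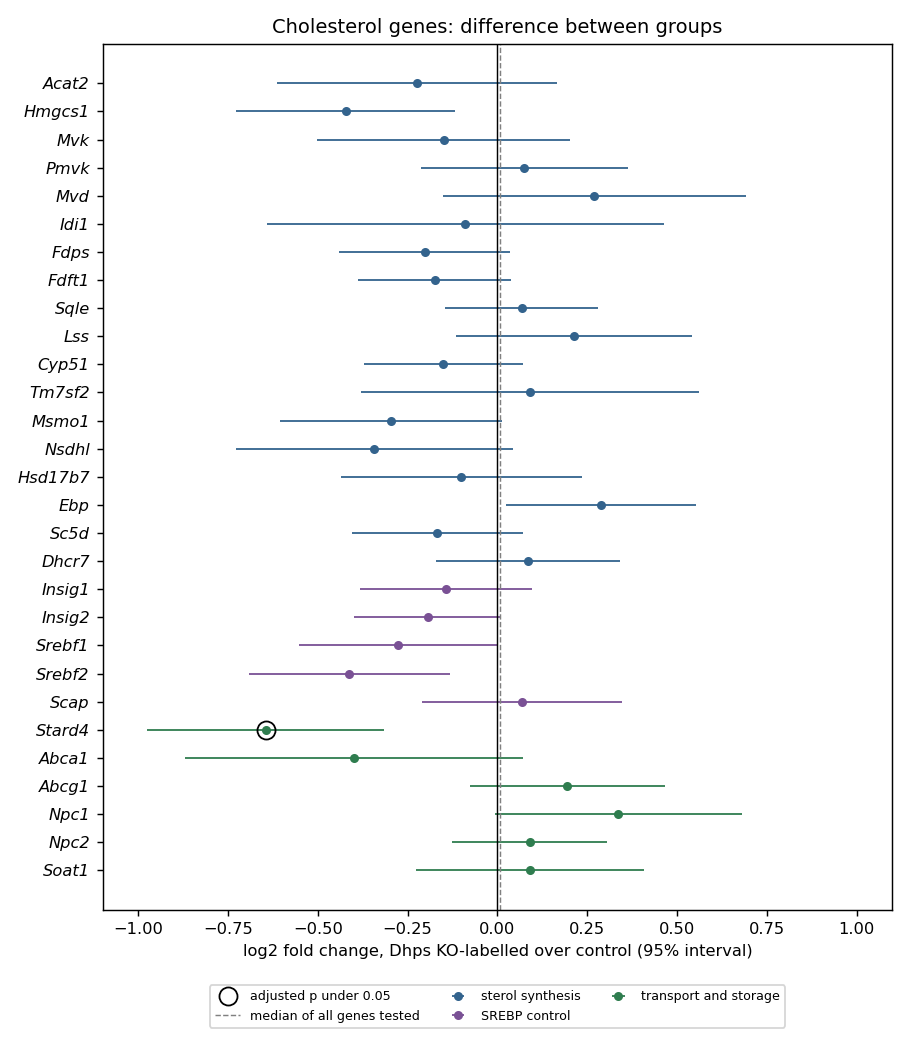
Log2 fold change of the 29 genes, knockout-labelled over control, with 95% intervals, coloured by role; the ring marks the gene with an adjusted p under 0.05. The points run from −0.65 for Stard4 to 0.34 for Npc1, and every interval lies between −1 and 1.

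Stard4 was the member that fell. It encodes a soluble carrier that moves cholesterol between membranes and is itself switched on by SREBP2. It lies on chromosome 18 from 33201421 to 33213816 (mm10). Its counts were 158, 128 and 126 in knockout-labelled replicates 1 to 3 and 232, 248 and 234 in controls 1 to 3. Scaled to library size this was 6.95, 6.01 and 6.40 CPM in knockout-labelled islets and 10.7, 10.3 and 9.26 CPM in control islets. Every knockout-labelled library was lower than every control. The log2 fold change was −0.65 ± 0.15 (SE, edgeR adjusted p = 0.0350), or 0.639 of the control level with a 95% interval of 0.509 to 0.804. The call rested on all 6 libraries: without any single library the log2 fold change stayed between −0.72 and −0.60, but the edgeR adjusted p was between 0.0629 and 0.110. Over all genes, edgeR called 6.76% with all libraries. With a library left out it called from 0.459% (without knockout-labelled replicate 1) to 6.91% (without control 1). With the acinar markers as a covariate the log2 fold change was −0.78 (edgeR adjusted p = 0.332), and with the myeloid markers it was −0.13 (edgeR adjusted p = 0.948). These fits called 0 and 4 of the 13736 genes tested, so a lost call there does not single out Stard4.

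The synthesis enzymes were not called in either direction. Of 18, 0 rose and 0 fell in edgeR, with 1 higher and 1 lower at an unadjusted p under 0.05. DESeq2 called 1 lower, and limma-voom called 0. Over all genes, edgeR called 6.76%, DESeq2 12.4% and limma-voom 6.49%, and 26.5% had an unadjusted edgeR p under 0.05. At such shares a list of 18 can hold few calls or none. Their median log2 fold change was −0.13, with 11 negative and 7 positive. Their summed level was 844, 832 and 756 CPM in knockout-labelled islets and 945, 856 and 871 CPM in control islets. Every knockout-labelled sum was below every control sum, by a narrow margin between replicate 1 and control 2. The sum was not tested, and the groups were apart for 32.1% of single genes tested. Abundant enzymes weigh most in it: Hmgcs1 averaged 102 CPM in knockout-labelled and 136 CPM in control islets, and Msmo1 131 and 161 CPM. Sqle, with 180 and 171 CPM, went the other way, as did the other positive enzymes.

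Hmgcs1, the cytosolic synthase that makes HMG-CoA early in the pathway, was the enzyme nearest the threshold. It had 104, 120 and 81.0 CPM in knockout-labelled islets and 144, 130 and 134 CPM in control islets. The groups did not overlap, and replicate 3 was the lowest library. The log2 fold change was −0.42 ± 0.14 (SE, edgeR adjusted p = 0.0869), or 0.746 of the control level (95% interval 0.604 to 0.922). DESeq2 gave an adjusted p of 0.0319, and edgeR gave 0.0465 without knockout-labelled replicate 2. With each library left out in turn the edgeR adjusted p ran from 0.0465 to 0.178, and limma-voom gave an adjusted p of 0.0752. With the acinar markers as a covariate the log2 fold change was −0.46 and with the myeloid markers −0.96, both uncalled in edgeR (adjusted p = 0.512 and 0.462). The 2 covariate fits called 0 and 4 of the 13736 genes tested.

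The other enzymes before squalene stood closer to the controls. Acat2, the cytosolic thiolase that starts the route, had a log2 fold change of −0.22 (95% interval −0.61 to 0.17). The mevalonate-phosphorylating enzymes Mvk (−0.15) and Pmvk (0.07), the decarboxylase Mvd (0.27) and the isomerase Idi1 (−0.09) went in both directions, with groups that overlapped. Fdps had 69.7, 67.2 and 55.4 CPM in knockout-labelled islets and 73.3, 71.2 and 76.6 CPM in control islets. Those groups were narrowly apart, with a log2 fold change of −0.20 (95% interval −0.44 to 0.04, edgeR adjusted p = 0.257), and without replicate 3 it was −0.11. Fdft1, which joins farnesyl units into squalene, had a log2 fold change of −0.17 (−0.39 to 0.04). Its exons overlap Ctsb, which averaged 10880 counts, so its reads are uncertain.

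Sqle, the entry to the sterol steps, had 182, 171 and 185 CPM in knockout-labelled islets and 177, 163 and 174 CPM in control islets. The groups overlapped, and the 95% interval of the ratio to the control level was 0.904 to 1.21 (log2 fold change 0.07, edgeR adjusted p = 0.697). Among the enzymes after squalene, Msmo1 had 149, 139 and 106 CPM in knockout-labelled islets and 180.5, 151 and 152 CPM in control islets. Its groups were apart, with replicate 3 lowest, and its log2 fold change was −0.30 (−0.60 to 0.01, edgeR adjusted p = 0.207). Without replicate 3 the log2 fold change of Msmo1 was −0.17. Ebp, the sterol isomerase, was the enzyme with the largest positive value, with 30.3, 33.6 and 30.5 CPM in knockout-labelled islets and 29.9, 23.7 and 23.8 CPM in control islets. Its groups were just apart, and the log2 fold change was 0.29 (0.02 to 0.55, edgeR adjusted p = 0.157). Cyp51, the lanosterol demethylase, had a log2 fold change of −0.15 and the demethylation enzyme Nsdhl one of −0.34. Lanosterol synthase Lss (0.21), the sterol reductases Tm7sf2 (0.09) and Dhcr7 (0.09), the ketoreductase Hsd17b7 (−0.10) and the desaturase Sc5d (−0.17) had groups that overlapped. Exons of Tm7sf2 overlap Vps51, which averaged 1009 counts, and exons of Lss overlap 4930483K19Rik.

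Many synthesis genes had their lowest value in the same library. Knockout-labelled replicate 3 was the lowest of the 6 libraries for 8 of the 18 enzymes (44.4%), namely Acat2, Hmgcs1, Mvk, Idi1, Fdps, Cyp51, Msmo1 and Nsdhl. Over all genes tested it was the lowest for 21.2%, the largest share of the 6 libraries. It was the lowest for 10 of all 29 members (34.5%), with 2 of the 5 regulators and 0 of the 6 transport and storage genes. These counts were not tested. The median over the 18 enzymes of the log2 ratio to the control mean was −0.14 for the third knockout-labelled library, against −0.09 for the first and −0.02 for the second. Without replicate 3 the Hmgcs1 value was −0.29 and the median of all 29 members was −0.09, while without control 1 that median was −0.065.

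**Figure D3:**
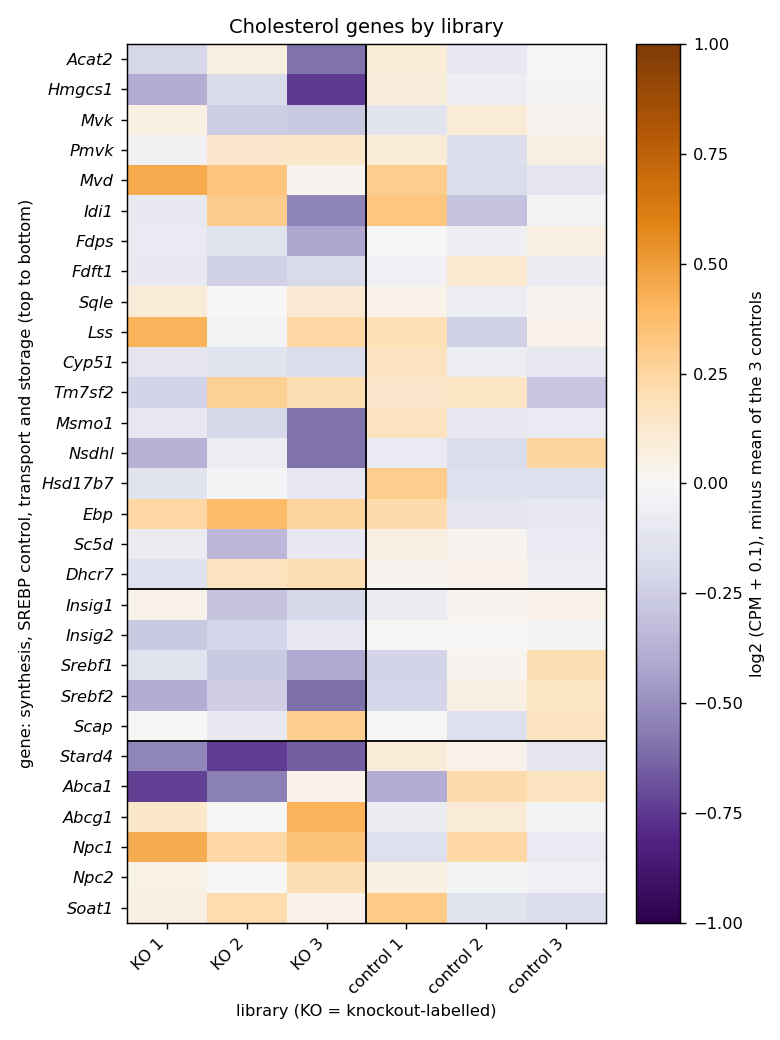
Log2 ratio of each gene's CPM to the mean of the 3 controls (pseudocount 0.1 CPM), knockout-labelled libraries left of the line and controls right of it. The deepest purple cells of the synthesis block, above the upper horizontal line, stand in KO 3, and the Stard4 row is purple in all 3 KO columns.

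Among the regulators, Srebf2 was nearest the threshold. It encodes SREBP2, the main activator of cholesterol synthesis. It had 75.3, 82.7 and 64.7 CPM in knockout-labelled islets and 84.9, 103 and 109 CPM in control islets. Every knockout-labelled library was below every control, although replicate 2 and control 1 were close. The log2 fold change was −0.41 ± 0.13 (SE, edgeR adjusted p = 0.0734), or 0.751 of the control level with a 95% interval of 0.618 to 0.912. It passed the threshold in DESeq2 (adjusted p = 0.0267), in edgeR with no filter on low counts (0.0467) and in edgeR without control 1 (0.0448). With each library left out in turn the edgeR adjusted p ran from 0.0448 to 0.197, and limma-voom did not call Srebf2. With the acinar covariate the log2 fold change was −0.24 and with the myeloid covariate −1.43, both uncalled in edgeR (adjusted p = 0.711 and 0.187). Over all 13736 genes tested these fits called 0 and 4.

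Srebf1 encodes the SREBP1 proteins, of which the SREBP1c form favours fatty acid genes. It had 68.2, 62.0 and 56.6 CPM in knockout-labelled islets and 64.2, 75.8 and 86.4 CPM in control islets. The groups overlapped, with a log2 fold change of −0.28 (95% interval −0.55 to 0.00, edgeR adjusted p = 0.190). Its exons overlap Rai1 and gene counts cannot separate its forms. Insig1, itself a SREBP target, had 119, 94.9 and 101 CPM in knockout-labelled islets and 110, 119 and 119 CPM in control islets. Replicate 1 was as high as the highest control, and the log2 fold change was −0.14 (−0.38 to 0.10, edgeR adjusted p = 0.431). Insig2, the form less dependent on SREBP, had 36.3, 37.6 and 40.6 CPM in knockout-labelled islets and 43.9, 44.0 and 43.1 CPM in control islets. These groups did not overlap, with a log2 fold change of −0.19 (−0.40 to 0.01, edgeR adjusted p = 0.210). The ratio of Insig1 to Insig2 in RPKM was 3.09 ± 0.509 in knockout-labelled islets and 2.97 ± 0.147 in control islets (SD, n = 3 each). Scap had a log2 fold change of 0.07 (−0.21 to 0.35). Of these 5 regulators, 0 were called in edgeR (6.76% of all genes) and 1 was lower at an unadjusted p under 0.05 (11.6% of all genes). DESeq2 called 1 lower (12.4% of all genes called in either direction) and limma-voom called 0 (6.49%).

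**Figure D4:**
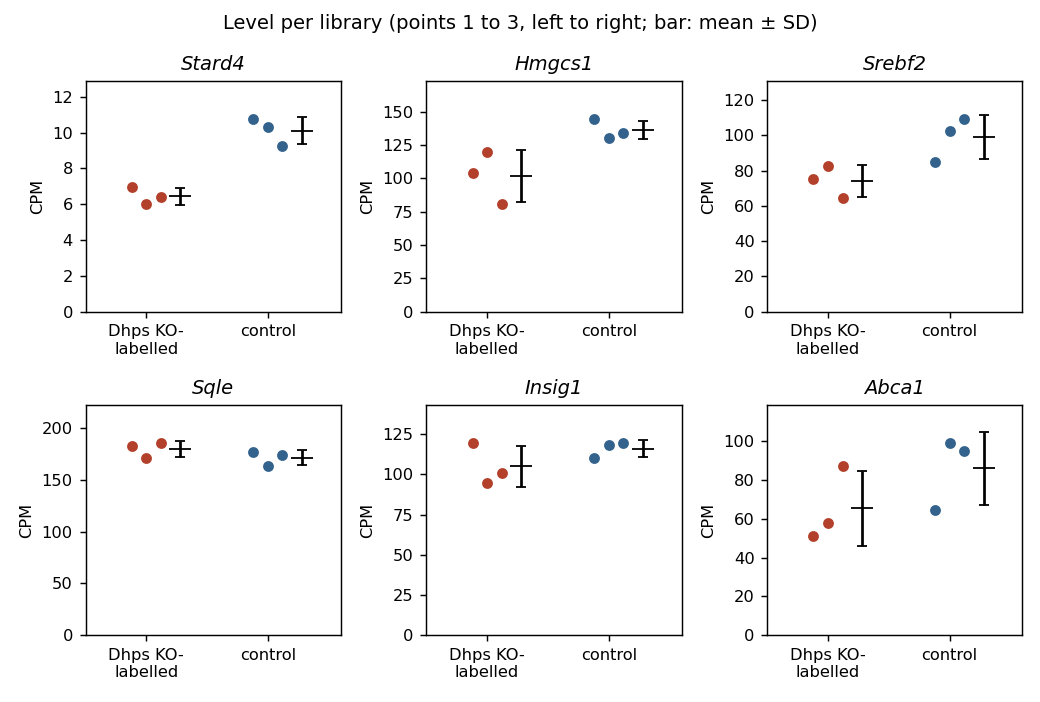
CPM of 6 members per library, knockout-labelled left and control right, replicates 1 to 3 from left to right in each group, with mean ± SD beside them (n = 3). Stard4, Hmgcs1 and Srebf2 are lower in all 3 knockout-labelled libraries, while the groups overlap for Sqle, Insig1 and Abca1.

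Export, lysosomal and storage genes other than Stard4 were not called. Abca1, the pump that loads cholesterol onto apolipoproteins, had 50.9, 57.8 and 87.0 CPM in knockout-labelled islets and 64.4, 98.7 and 94.7 CPM in control islets. Replicate 3 lay above control 1, so the groups overlapped (log2 fold change −0.40, 95% interval −0.87 to 0.07, edgeR adjusted p = 0.256). Without replicate 3 the log2 fold change of Abca1 was −0.67 (edgeR adjusted p = 0.0811), and without replicate 1 it was −0.25 (edgeR adjusted p = 0.552). Abcg1, which moves sterol within cells and out to lipoproteins, had 33.0, 30.1 and 40.0 CPM in knockout-labelled islets and 28.4, 32.1 and 29.5 CPM in control islets. Its log2 fold change was 0.19 (−0.08 to 0.47, edgeR adjusted p = 0.339). Both pumps are LXR targets, and the ratio of Abca1 to Abcg1 in RPKM was 0.874, 1.09 and 1.23 in knockout-labelled islets and 1.29, 1.74 and 1.82 in control islets. Each knockout-labelled ratio was below each control ratio. This ratio was chosen after the single values were known and was not tested.

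Npc1, which lets cholesterol leave the lysosome, had 11.4, 9.87 and 10.6 CPM in knockout-labelled islets and 7.50, 9.88 and 7.87 CPM in control islets. Replicate 2 and control 2 were level, and the log2 fold change was 0.34 (−0.01 to 0.68, edgeR adjusted p = 0.198). Its exons overlap 3110002H16Rik, which averaged 349 counts. Npc2 had a log2 fold change of 0.09 (−0.13 to 0.31). Soat1, which esterifies cholesterol for storage, had 21.9, 24.4 and 21.5 CPM in knockout-labelled islets and 26.0, 19.1 and 18.6 CPM in control islets. The groups overlapped, with a log2 fold change of 0.09 (−0.23 to 0.41, edgeR adjusted p = 0.729).

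The wider sterol pathway was taken from 5 further lists with 62 genes tested, of which 5 rose, 1 fell and 56 were not called, or 9.68% called against 6.76% of all genes. Of 18 other uptake, carrier and hydrolysis genes, 2 rose and 1 fell. Scarb1, the receptor for high-density lipoprotein, had 33.5, 32.8 and 33.9 CPM in knockout-labelled islets and 19.4, 24.6 and 20.8 CPM in control islets. The groups were well apart (log2 fold change 0.63 ± 0.11 SE, edgeR adjusted p = 0.0196). Scarb2, a lysosomal membrane protein of the same family, had 78.3, 67.9 and 105 CPM in knockout-labelled islets and 56.3, 44.0 and 47.6 CPM in control islets. Its log2 fold change was 0.76 ± 0.16 (edgeR adjusted p = 0.0292). Gramd1c, a sterol carrier at contacts of the endoplasmic reticulum with the plasma membrane, had 14.1, 17.6 and 16.7 CPM in knockout-labelled islets and 23.9, 20.7 and 23.8 CPM in control islets. It fell, with a log2 fold change of −0.50 ± 0.12 (edgeR adjusted p = 0.0427).

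Of 9 other SREBP pathway proteins, 1 rose: Tmem97, a sterol-regulated membrane protein that binds NPC1 in human cells, had 31.5, 24.9 and 26.2 CPM in knockout-labelled islets and 20.04, 19.3 and 15.8 CPM in control islets. Its log2 fold change was 0.58 ± 0.13 (edgeR adjusted p = 0.0346). Of 10 isoprenoid branch enzymes, 1 rose: Fnta, a subunit of the protein prenyltransferases, had 70.4, 50.7 and 62.1 CPM in knockout-labelled islets and 43.3, 40.4 and 39.2 CPM in control islets (log2 fold change 0.58 ± 0.12, edgeR adjusted p = 0.0315). Of 13 LXR pathway and oxysterol genes, 1 rose: Hsd3b7, an enzyme of bile acid synthesis, had 23.8, 19.7 and 40.6 CPM in knockout-labelled islets and 16.5, 14.0 and 14.8 CPM in control islets (0.89 ± 0.23, edgeR adjusted p = 0.0490). Replicate 3 carried much of that mean, and without it the log2 fold change was 0.53 (edgeR adjusted p = 0.0737); with all libraries limma-voom gave an adjusted p of 0.0650. Of 12 SREBP1 fatty acid targets, 0 were called in edgeR, with 3 higher and 1 lower at an unadjusted p under 0.05, which 26.5% of all genes passed. DESeq2 called 2 of them higher and 1 lower, against 12.4% of all genes, and limma-voom called 0, against 6.49% of all genes. The median log2 fold change was 0.31 for the 13 LXR pathway and oxysterol genes, 0.05 for the fatty acid targets, 0.043 for the other SREBP pathway proteins, 0.0055 for the uptake, carrier and hydrolysis genes and −0.0038 for the isoprenoid enzymes. It was 0.03 over the 62 genes and 0.01 over all genes tested.

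These 6 calls also depended on single libraries. The Scarb1 call was lost without knockout-labelled replicate 1 or control 3 (edgeR adjusted p = 0.0702 and 0.0675). The calls of Scarb2, Fnta and Tmem97 were lost without knockout-labelled replicate 1 or 3 or control 2 or 3. Those of Hsd3b7 and Gramd1c were lost without any single library other than knockout-labelled replicate 2. The highest adjusted p among these was 0.161. Over all genes, edgeR called 929 with all libraries. It called 64 without knockout-labelled replicate 1, 719 without replicate 2 and 344 without replicate 3. Without control 1, 2 or 3 it called 968, 99 and 216. The lost calls are therefore not particular to these 6 genes. With the acinar or the myeloid markers as a covariate none of the 6 was called in edgeR, and their log2 fold changes kept their signs. Those fits called 0 and 4 of the 13736 genes tested, so the lost calls do not single out these 6. The myeloid covariate moved Scarb2 to 1.99, Fnta to 1.38, Tmem97 to 1.33 and Hsd3b7 to 2.52 on the log2 scale, and the acinar covariate moved Tmem97 to 0.36. Both marker shares were apart between the groups, so these values are not corrected effects.

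**Figure D5:**
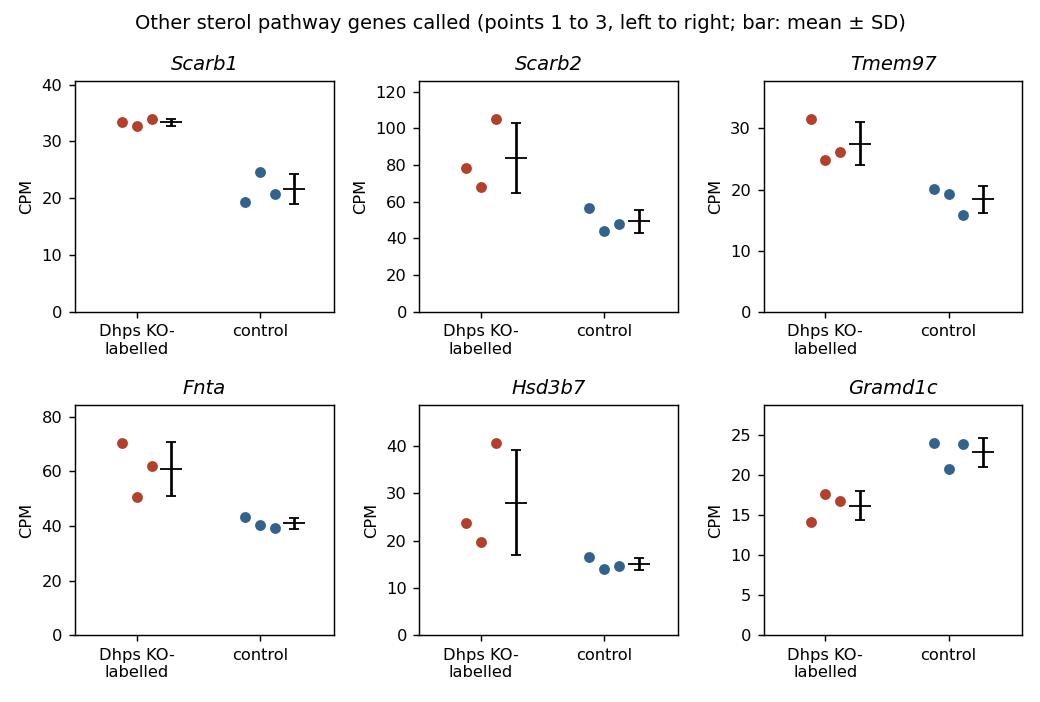
CPM per library of the 6 called genes of the wider sterol pathway, knockout-labelled left and control right, replicates 1 to 3 from left to right in each group, with mean ± SD beside them (n = 3). The groups do not overlap for any of the 6, with Gramd1c lower and the other 5 higher in knockout-labelled islets.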

How the data were processed

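Per the labels' protocols, 10 ng of total RNA per sample was copied with poly-dT priming in the SMART-Seq v4 low-input chemistry, sheared, and made into Ion Plus Fragment libraries. Build mm10 is given by the submitters' processing notes, which also list edgeR, featureCounts, Subread 1.5.0 and STAR 2.4.2a. Which annotation, strand and multi-mapping settings were used is not stated there. The deposited table holds whole-number counts per gene, not normalized, and exon lengths in another unit (bp), per the file headers. The members and lists were chosen with earlier results of these data known.

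Counts were tested in edgeR 4.0.16 (R 4.3.3) with quasi-likelihood fits on group alone, TMM factors and the tool's default low-count filter. All tested genes entered the Benjamini-Hochberg adjustment. CPM and RPKM were computed from the counts with TMM-scaled library sizes; standard errors come from the fold change and F value, and 95% intervals are not adjusted for the number of genes. Values per library are printed for called members and 11 fixed regulators, enzymes and carriers; other members with values per library (Fdps, Msmo1, Ebp) were chosen after their values were seen. Called genes of the wider lists are named; Spring1 was not matched by symbol and Apobr did not pass the filter. Exon overlaps ignore strand (GenomicRanges 1.54.1). Replicate pairs differed by more than counting noise (chi-square per degree of freedom 11.24 or more), so none was taken as a repeat deposit. The procedure was tested on simulated data. Alternatives were RLE and upper-quartile factors, other filters, DESeq2 1.42.0, limma-voom (limma 3.58.1), marker covariates, the replicate number as a block, fits that lack acinar and islet hormone genes, and omission of each library in turn.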

Additional observations from a re-analysis of the deposited data

How the results depend on the processing

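In each of the 16 alternatives 0 members rose. Some of these fits called few genes of any kind, so a count of 0 in them says little. The acinar and myeloid covariate fits called 0 and 4 genes. Those without knockout-labelled replicate 1 or control 2 called 64 and 99. The count of members that fell, 1 in edgeR, was 3 with DESeq2 (Stard4, Hmgcs1 and Srebf2), 2 with no filter on low counts (Stard4 and Srebf2), and 0 with the acinar covariate, the myeloid covariate or the replicate block. Leaving out each library gave 0 to 1, and that 1 was Hmgcs1 without knockout-labelled replicate 2 and Srebf2 without control 1. The member median of −0.14 was 0.054 with the myeloid covariate and lay between −0.16 and −0.065 with each library left out. Genes of the wider lists that rose, 5, were 8 with DESeq2, 0 with either covariate and 0 to 6 with a library left out; those that fell, 1, were 3 with DESeq2, 2 with no filter, 0 with either covariate or the replicate block, and 0 to 1 with a library left out. Over all genes, 568 rose and 361 fell; DESeq2 called 990 and 712, no filter gave 620 lower, the acinar covariate 0 and 0 (1412 at an unadjusted p under 0.05), the myeloid covariate 1 and 3, and leaving out a library 56 to 534 and 8 to 434. The causes of these shifts were not tested.

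Some uncalled members changed sign. With the myeloid covariate the log2 fold changes of Cyp51 (0.25), Hsd17b7 (0.49) and Sc5d (0.45) were positive, and with the acinar covariate those of Tm7sf2 (−0.26) and Soat1 (−0.13) were negative. With each library left out, the range was −0.015 to 0.13 for Pmvk, −0.33 to 0.094 for Idi1, −0.056 to 0.23 for Tm7sf2, −0.19 to 0.060 for Hsd17b7, −0.055 to 0.14 for Scap and −0.0097 to 0.26 for Soat1. The myeloid covariate moved Nsdhl to −1.53, Lss to 1.09, Srebf1 to −0.97 and Acat2 to −0.91, and the acinar covariate moved Nsdhl to −0.04 and Srebf1 to −0.02. These covariate fits separate group from marker level poorly. Leaving out a single library moved 22 of the 29 members by over 1.5 times or changed their sign in at least 1 of the 6 fits, and 13 did so without knockout-labelled replicate 3. Such moves were not counted over all genes, and small log2 fold changes pass this mark easily. Under the other scalings and filters, DESeq2, limma-voom, the replicate block and removal of the acinar and hormone genes, 0 members moved that far.

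Replicate numbers are shared between the groups, but same-numbered libraries did not deviate together (correlations across 13736 genes of −0.04, −0.01 and 0.05 for numbers 1, 2 and 3), so they were not taken as pairs. The replicate block ended the calls of Stard4 (log2 fold change −0.65, edgeR adjusted p = 0.0547) and Gramd1c (−0.50, 0.0664) and left the other 5 called genes named in the text called. The 95% intervals hold for the fit on group alone. With the myeloid covariate several members lay outside theirs, among them Hmgcs1 (−0.96), Srebf2 (−1.43), Nsdhl (−1.53), Lss (1.09) and the called member Stard4. That fit separates group from myeloid marker level poorly, so these values are not corrected effects.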
